A study of Caenorhabditis elegans with 4 samples.

Results

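The 8 genes described here are skn-1, wdr-23, gcs-1, hsf-1, hif-1, egl-9, vhl-1 and pqm-1, which belong to the SKN-1, HSF-1 and HIF-1 stress responses of C. elegans and to the related regulator PQM-1. They were taken by name from a table of 46766 genes, in which each had a single entry. RNA was sequenced from wild-type N2 worms, the standard laboratory strain, at an age of 22 days. Synchronized worms received either Gengnianchun (GNC), a mixture of water extracts of Chinese medicinal herbs, at 3.94 mg/mL or water alone, and E. coli OP50 was the food in both groups. There were 2 libraries of GNC-treated worms and 2 libraries of control worms (water), all made from total RNA of whole worms. The sample protocols and the methods describe culture in S-complete liquid medium, whereas the design text of the series names nematode growth medium. Nothing states that the libraries of a group came from separate cultures, so the p-values measure only the spread between these libraries, which may be technical.

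Each of the 3 pathways turns a kind of stress into transcription. SKN-1, the worm counterpart of the mammalian Nrf factors, switches on detoxification genes, and WDR-23 recruits it to a ubiquitin ligase built on CUL-4 and DDB-1. The gene gcs-1 encodes glutamate-cysteine ligase, the rate-limiting enzyme of glutathione synthesis and a much used readout of SKN-1. HSF-1 binds heat shock elements and drives chaperone genes. HIF-1 is the hypoxia-inducible factor: the prolyl hydroxylase EGL-9 marks it in the presence of oxygen, and VHL-1 then directs it to degradation. PQM-1 is a zinc finger factor of the intestine that acts on genes with the DAF-16 associated element (DAE) and leaves the nucleus when DAF-16 enters it. Much of this control acts on the proteins, by turnover, phosphorylation or localization, which RNA counts do not measure. In whole worms, fewer cells of a type and less RNA per cell cannot be told apart.

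The question asked of the table was whether GNC changed the RNA of these genes and of the genes around them in each pathway. Total counts ranged from 18639631 to 21753657 per library. Counts were scaled to the library by the TMM method, giving CPM, counts put on a common library size, and all 16341 genes that passed the filter on low counts were tested together in edgeR. All 8 genes passed that filter. A gene passed the test at a Benjamini-Hochberg adjusted p (FDR) under 0.05. Of the 8 genes, egl-9 and pqm-1 rose with GNC and none fell, where 19.8% of all genes tested rose and 20.5% fell. Without adjustment, 2 genes were higher and 1 was lower at p under 0.05 in edgeR. DESeq2 called 0 of the 8 at its adjusted p and 2 higher at an unadjusted p under 0.05. The study also asked for a change of at least 2-fold, which 7.2% of all genes and none of the 8 met. The libraries of the groups did not overlap in 4 genes that were above control (gcs-1, hif-1, egl-9 and pqm-1), against 36.5% of all genes, and in hsf-1, which was below control, against 34.5% of all genes. These shares do not set the 8 genes apart from the genes tested. Their median log2 fold change was 0.08, beside 0.02 over all genes.

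The direction of small changes depended on abundance and on scaling. Among the 2069 genes with a mean of 100 to 300 CPM, a range chosen after the values were seen that holds 6 of the 8 genes, the median log2 fold change was -0.12, with 10.9% of genes higher and 42.3% lower at an FDR under 0.05. Of the 6, skn-1 (-0.20) and hsf-1 (-0.13) lay below this median and wdr-23 (0.00), gcs-1 (0.07), hif-1 (0.12) and pqm-1 (0.19) above it. When library totals replaced TMM, the median of all genes was 0.12, and the split of calls was 4349 genes higher and 2121 lower, against 3238 higher and 3356 lower with TMM. With upper quartile scaling the median was 0.10 and the split was 4033 higher and 2391 lower.

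**Figure D1:**
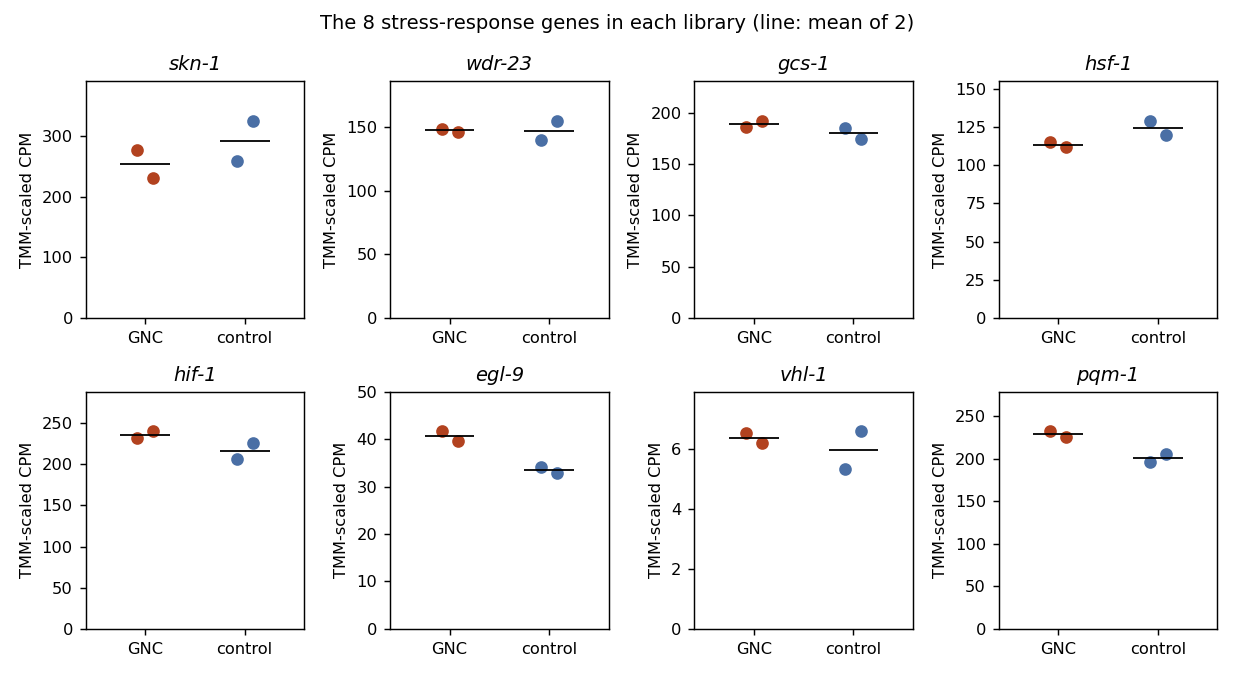
TMM-scaled CPM (vertical axes, from 0) of each gene in the 2 GNC libraries (red) and the 2 control libraries (blue), with a line at each group's mean. The GNC points lie above the control points for gcs-1, hif-1, egl-9 and pqm-1 and below them for hsf-1, and the groups overlap for skn-1, wdr-23 and vhl-1.

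Of the SKN-1 genes skn-1, wdr-23 and gcs-1, none passed the test. The gene skn-1 (WBGene00004804, chromosome IV, 5651085 to 5660523, minus strand) is protein-coding, with 4 annotated transcripts that a count per gene does not separate. It had 6252 and 4824 counts in the GNC libraries, against 4717 and 6233 counts in the control libraries. The scaled levels were 278 and 232 CPM in GNC-treated worms, against 260 and 325 CPM in control worms. The groups overlapped, since the higher GNC library lay above the lower control library, and the spread within each group was the widest among the 8 genes in CPM. The log2 fold change was -0.20 (SE 0.11, 95% interval -0.45 to 0.05, adjusted p = 0.176). This value turned on single libraries. It was -0.34 without GNC replicate 1 (adjusted p = 0.0080) and -0.35 without control replicate 1 (adjusted p = 0.0104), but -0.08 without GNC replicate 2 (adjusted p = 0.596) and -0.03 without control replicate 2 (adjusted p = 0.815). With expression-dependent offsets it was -0.05 (adjusted p = 0.736). The lectin gene clec-178 lies within the span of skn-1 on the other strand, touches none of its annotated exons, and had 37 and 30 counts with GNC and 42 and 43 counts in control.

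The adaptor gene wdr-23 (WBGene00008419, chromosome I, 7596507 to 7602203, plus strand) had nearly the same mean in both groups. Its levels were 149 and 146 CPM in GNC-treated worms, against 139 and 155 CPM in control worms, so the GNC libraries lay between the control libraries. The log2 fold change was 0.00 (SE 0.06, adjusted p = 0.987), and the 95% interval of -0.14 to 0.15 leaves room for changes of that size. The target gene gcs-1 (WBGene00001527, chromosome II, 9035561 to 9038301, minus strand) was at 186 and 192 CPM with GNC, against 185 and 175 CPM in control. The GNC libraries were the higher ones by a narrow margin. The log2 fold change of 0.07 (SE 0.06, 95% interval -0.06 to 0.20) did not pass the test (adjusted p = 0.373). With library totals in place of TMM it was 0.17 (adjusted p = 0.0465), and with expression-dependent offsets it was 0.20 (adjusted p = 0.0236). Without each library in turn it was 0.02 to 0.12 and did not pass, the lowest value being that without control replicate 2 (adjusted p = 0.817).

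The heat shock factor gene hsf-1 (WBGene00002004, chromosome I, 11953511 to 11961984, minus strand) had 115.3 and 111.6 CPM in GNC-treated worms, against 129.2 and 120.0 CPM in control worms. Both GNC libraries were lower, but the log2 fold change of -0.13 (SE 0.06) did not pass the test over all genes (adjusted p = 0.0990), although its 95% interval of -0.27 to -0.0017 lay below 0. It was -0.19 without control replicate 2 (adjusted p = 0.0413), but -0.08 without control replicate 1 (adjusted p = 0.395). With library totals (adjusted p = 0.705) and with expression-dependent offsets (adjusted p = 0.735) it was -0.03.

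In the HIF-1 branch, the hydroxylase gene egl-9 rose with GNC. The gene egl-9 (WBGene00001178, chromosome V, 10468411 to 10476952, plus strand, 7 annotated transcripts) had 939 and 827 counts in the GNC libraries, against 621 and 630 counts in the control libraries. The scaled levels were 41.7 and 39.7 CPM with GNC, against 34.2 and 32.9 CPM in control, and the gap between the groups was wider than the spread within either. The log2 fold change was 0.28 (SE 0.08, 95% interval 0.11 to 0.45, adjusted p = 0.0152), or 1.21-fold. In size this was an ordinary change for these data, since 50.03% of all genes tested had a larger absolute log2 fold change. The call was lost without GNC replicate 1 (log2 fold change 0.24, adjusted p = 0.111) and without control replicate 2 (0.25, adjusted p = 0.0575). It was also lost with DESeq2 (adjusted p = 0.0814) and without the filter on low counts (adjusted p = 0.0899). Under all 5 other scalings egl-9 was higher, with log2 fold changes of 0.27 to 0.38 and adjusted p of 0.00359 to 0.0183. The 3 non-coding RNA genes that lie within its span had 0 to 2 counts per library.

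The gene hif-1 itself (WBGene00001851, chromosome V, 20780413 to 20785258, plus strand, 6 annotated transcripts) was at 231 and 240 CPM with GNC, against 206 and 226 CPM in control. The GNC libraries were the higher ones, but the nearest libraries of the groups differed by less than the control libraries did from each other. The log2 fold change of 0.12 (SE 0.06, 95% interval -0.02 to 0.26) did not pass the test (adjusted p = 0.153). It passed with upper quartile scaling (0.20, adjusted p = 0.0306), library totals (0.23, adjusted p = 0.0137) and expression-dependent offsets (0.26, adjusted p = 0.00720), and without control replicate 2 (0.18, adjusted p = 0.0487). Without control replicate 1 it was 0.06 (adjusted p = 0.508). The ligase subunit gene vhl-1 (WBGene00006922, chromosome X, 11307360 to 11308321, plus strand) was the least counted of the 8, with 147 and 129 counts in the GNC libraries and 97 and 126 counts in the control libraries. Its levels were 6.53 and 6.19 CPM with GNC, against 5.34 and 6.58 CPM in control, and the groups overlapped. At this depth the log2 fold change of 0.09 had an SE of 0.16 and a 95% interval of -0.27 to 0.46 (adjusted p = 0.687). A change in either direction within that interval is therefore not excluded.

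The gene pqm-1 rose with GNC. It (WBGene00004096, chromosome II, 11150335 to 11152600, minus strand) had 5238 and 4701 counts in the GNC libraries, against 3576 and 3935 counts in the control libraries. The scaled levels were 233 and 226 CPM in GNC-treated worms, against 197 and 205 CPM in control worms, and the groups did not overlap. The log2 fold change was 0.19 (SE 0.06, 95% interval 0.06 to 0.32, adjusted p = 0.0254), or 1.14-fold, and 64.3% of all genes tested had a larger absolute change. The call was lost without GNC replicate 1 (adjusted p = 0.125), GNC replicate 2 (adjusted p = 0.0515) and control replicate 1 (adjusted p = 0.0791), with DESeq2 (adjusted p = 0.0777) and without the filter (adjusted p = 0.0982). Under all 5 other scalings pqm-1 was higher, with log2 fold changes of 0.18 to 0.32. The arrestin-domain gene arrd-6 on the other strand overlaps the end of pqm-1 in the deposited positions and had 28 to 54 counts per library. It touches no exon of pqm-1 in the Ensembl annotation, where pqm-1 starts at 11150391, past the deposited end of arrd-6 at 11150381. Exons behind the deposited positions were not compared.

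**Figure D2:**
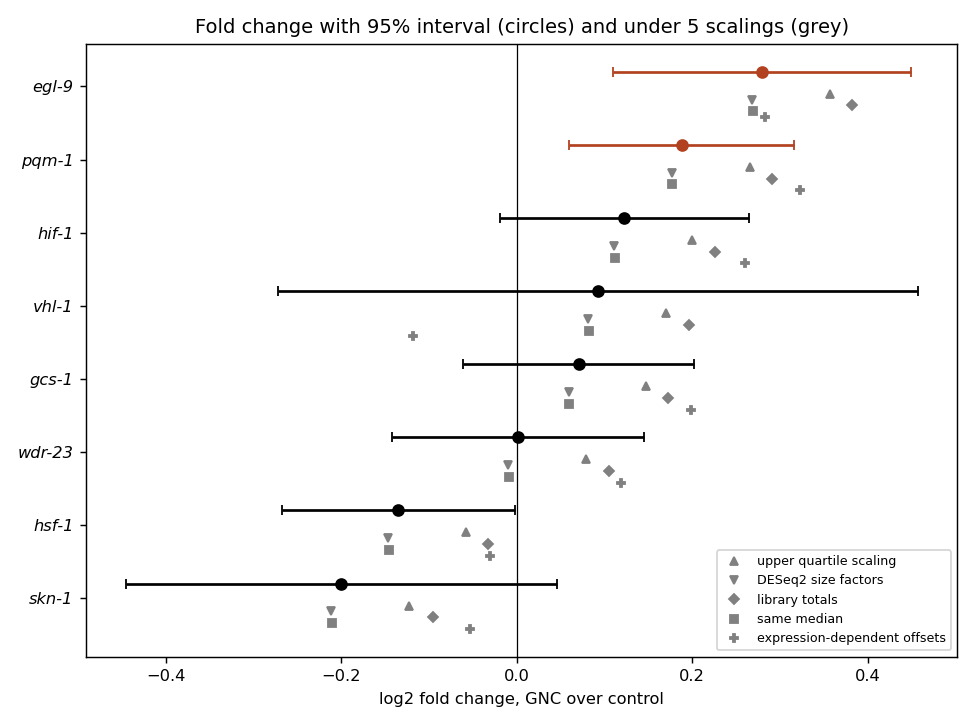
Log2 fold change of GNC over control for each gene (horizontal axis), with circles and bars for the TMM fit and its 95% interval (red where the adjusted p is under 0.05) and grey marks for 5 other scalings. Only the circles of egl-9 (0.28) and pqm-1 (0.19) are red, and their grey marks all lie above 0.

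Relative to each other, some of the genes separated in a way that does not depend on a scaling factor per library, because a ratio of 2 genes within a library cancels it. The log2 ratio of egl-9 to pqm-1 was -2.48 and -2.51 in the GNC libraries, against -2.53 and -2.64 in the control libraries, a difference of 0.09 between the groups. For these genes, which both passed the test, the gap between the groups was smaller than the spread between the control libraries. The ratio of hsf-1 to egl-9 was 1.47 and 1.49 with GNC, against 1.92 and 1.87 in control, a difference of -0.41. The ratio of hsf-1 to pqm-1 was -1.01 and -1.02 with GNC, against -0.61 and -0.78 in control, a difference of -0.32. The gap between groups in both hsf-1 ratios exceeded the spread within them. For wdr-23 relative to gcs-1 the ratios overlapped, at -0.32 and -0.40 with GNC and -0.41 and -0.17 in control. Only some of the possible pairs are shown. As hsf-1 alone lay below control without overlap, its separation from the 2 genes that rose largely follows from the values above. These ratios are descriptions without a test.

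Levels can be compared between genes only per length, for which the deposited FPKM were used, which are fragment counts divided by gene length and library total. The order was led by pqm-1, at 164 ± 3.59 FPKM in GNC-treated worms and 134 ± 1.97 FPKM in control worms (SD, n = 2 each). It was followed by gcs-1, at 83.7 ± 1.99 FPKM with GNC and 74.3 ± 4.29 FPKM in control. The next 4 genes lay close together: skn-1 at 60.2 ± 7.73 FPKM with GNC and 64.4 ± 9.25 FPKM in control, hif-1 at 54.8 ± 1.39 FPKM with GNC and 46.9 ± 2.27 FPKM in control, wdr-23 at 50.9 ± 0.687 FPKM with GNC and 47.4 ± 2.82 FPKM in control, and hsf-1 at 50.5 ± 1.197 FPKM with GNC and 51.7 ± 3.51 FPKM in control. Within this set, skn-1 and hif-1 did not differ beyond their spread in GNC-treated worms, nor did wdr-23 and hsf-1 in either group. The lowest were egl-9, at 12.62 ± 0.445 FPKM with GNC and 9.69 ± 0.414 FPKM in control, and vhl-1, at 9.48 ± 0.359 FPKM with GNC and 8.27 ± 1.09 FPKM in control. Both regulators that turn HIF-1 over were thus less abundant per length than hif-1 in both groups. FPKM are not scaled by TMM, so they carry the shift of all genes described above.

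**Figure D3:**
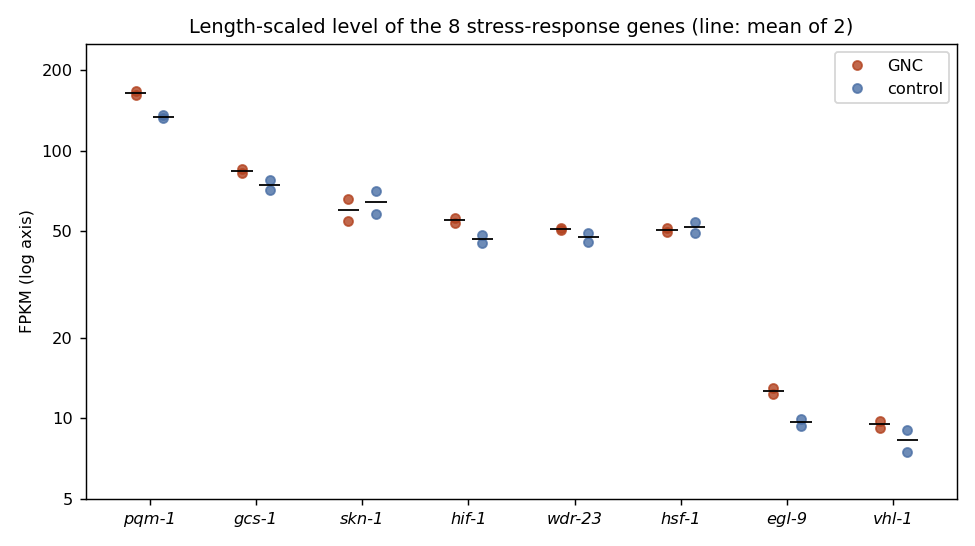
FPKM of each gene on a log axis, with GNC libraries (red) left of control libraries (blue) and a line at each mean. pqm-1 is the highest at 164 FPKM with GNC and 134 FPKM in control, and egl-9 and vhl-1 lie near 10 FPKM, below the other 6 genes.

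The genes around these regulators were described from 8 hand-written lists of 80 genes, of which 76 were tested. The lists were written with earlier results of these data known, so their counts are descriptions and not independent evidence. Among the 76, 9 rose, 29 fell and 38 did not pass the test, and the median log2 fold change was -0.13. No list was given a p-value of its own, and each count is to be read beside the 19.8% of all genes that rose and the 20.5% that fell. These shares depend on abundance: among genes of 100 to 300 CPM, 10.9% rose and 42.3% fell, with a median of -0.12. The lists were not matched to other genes for abundance.

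Upstream of SKN-1, 1 of the 8 kinase genes tested rose and none fell. It was akt-2, an insulin pathway kinase whose activity keeps SKN-1 out of the nucleus, at 72.5 and 79.6 CPM with GNC, against 45.1 and 49.9 CPM in control (log2 fold change 0.68, SE 0.08, adjusted p = 0.000158). The genes of the p38 cascade that activates SKN-1 stayed under the threshold, with log2 fold changes of 0.10 for nsy-1, -0.12 for sek-1 and 0.04 for pmk-1, which were chosen for mention after their values were seen. Of the 9 genes of SKN-1 turnover and processing, 2 fell and none rose. The ligase subunit gene ddb-1, the partner of cul-4 in the complex that WDR-23 joins, was at 218 and 216 CPM with GNC, against 313 and 299 CPM in control (log2 fold change -0.49, SE 0.06, adjusted p = 0.000202). The phosphatase gene pgam-5, whose product holds SKN-1 at mitochondria, had a log2 fold change of -0.28 (SE 0.05, adjusted p = 0.00287). The calls of akt-2, ddb-1 and pgam-5 held under all 5 other scalings and without each library.

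The detoxification genes that respond to SKN-1 split in both directions, with 3 higher, 5 lower and 6 not past the threshold among 14, and a median log2 fold change of -0.04 that turned to 0.06 with library totals. The counts also changed, to 4 higher and 3 lower with library totals, 1 higher and 5 lower without GNC replicate 1, and 1 higher and 2 lower without the filter on low counts. The reporter gene gst-4, a glutathione S-transferase, rose to 67.7 and 63.6 CPM with GNC, against 44.8 and 37.5 CPM in control (log2 fold change 0.68, SE 0.09, adjusted p = 0.000348). The UDP-glucuronosyltransferase gene ugt-11 (log2 fold change 0.38, adjusted p = 0.0202, called in 2 of the 4 fits without a library) and the glutathione synthetase gene gss-1 (0.21, adjusted p = 0.0497) also rose. The call of gss-1, which acts in the step after gcs-1, was lost in 3 of the 4 fits without a library, with adjusted p of up to 0.335. Among the 5 genes that fell, the lowest values were those of the glutathione S-transferase genes gst-7, gst-10 and gst-12. The level of gst-7 was 48.3 and 52.3 CPM with GNC, against 83.5 and 88.7 CPM in control (log2 fold change -0.78, SE 0.07, adjusted p = 5.2e-05). The counts of gst-12 were 36 and 38 with GNC, against 83 and 107 in control (log2 fold change -1.57, SE 0.22, adjusted p = 0.000498), the only change of at least 2-fold in the list. The counts of gst-10 were 42 and 23 with GNC, against 48 and 55 in control (log2 fold change -0.88, adjusted p = 0.0340), and its call was lost in 3 of the 4 fits without a library. Glutathione S-transferase genes are similar to each other and counting could have split reads between them, so single values are uncertain. The summed level of the 14 genes was 429 to 438 CPM with GNC and 435 to 444 CPM in control.

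Of the 18 chaperone genes that respond to HSF-1, 13 fell with GNC and none rose, and the median log2 fold change was -0.54. Over all genes tested 20.5% fell, and among genes of 100 to 300 CPM 42.3% fell. The summed level of the list was 9090 to 9268 CPM in GNC-treated worms, against 12288 to 13122 CPM in control worms. Most of this sum, and of its difference, came from hsp-90, hsp-1 and sip-1. Their means were 4971, 1808 and 718 CPM with GNC, against 6921, 2369 and 1092 CPM in control. The inducible hsp-70 gene had 1281 and 1398 counts with GNC, against 1846 and 1985 counts in control (log2 fold change -0.73, SE 0.08, adjusted p = 0.00013). Among the genes that passed the test, the lowest values were those of 2 further inducible Hsp70 genes, F44E5.4 (log2 fold change -1.05, adjusted p = 0.000328) and F44E5.5 (-0.91, adjusted p = 0.000677), and of the small heat shock gene hsp-16.11 (-0.90, adjusted p = 0.000366). F44E5.4 and F44E5.5 are nearly identical, so they were also summed, which gave 253 and 360 CPM with GNC, against 644 and 573 CPM in control. The sum of hsp-16.1 and hsp-16.11 was 96.6 and 103 CPM with GNC, against 188 and 166 CPM in control, and the sum of hsp-16.48 and hsp-16.49 was 81.0 and 87.1 CPM with GNC, against 154 and 136 CPM in control. In all 3 sums the groups did not overlap. Both genes of each of these near-identical pairs are among the 13, so the count of 13 treats genes as separate whose reads may be shared. The oocyte and embryo markers described below were also lower with GNC, with a summed level of 1322 to 1387 CPM, against 2160 to 2231 CPM in control, and their part in the chaperone values was not tested.

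The small heat shock gene hsp-16.2 did not pass the test, with 108 and 80 counts in the GNC libraries, against 241 and 77 counts in the control libraries (log2 fold change -0.99, SE 0.43, adjusted p = 0.0916). Its high mean in control rested on replicate 1. The most abundant chaperones, named after their values were seen, also fell: hsp-90 to 4999 and 4944 CPM with GNC, against 6599 and 7244 CPM in control, and the constitutive hsp-1 to 1975 and 1640 CPM with GNC, against 2245 and 2493 CPM in control. The embryonic small heat shock gene sip-1 was at 721 and 714 CPM with GNC, against 1053 and 1130 CPM in control. Over the other settings, from 8 to 14 of the 18 genes were lower. The smallest count of 8 came from edgeR without the filter and from limma on FPKM, and it was 10 with expression-dependent offsets and 11 with library totals. A gene of the list passed as higher in 3 of these settings: library totals, expression-dependent offsets and the fit without GNC replicate 1. Upstream, 1 of the 4 HSF-1 regulator genes rose. It was hsb-1, whose product binds HSF-1 and restrains it, at 40.2 and 43.2 CPM with GNC, against 23.3 and 31.9 CPM in control (log2 fold change 0.59, SE 0.13, adjusted p = 0.00490). Its log2 fold change was 0.38 without control replicate 1 and 0.83 without control replicate 2, and the call was lost without the filter on low counts (adjusted p = 0.111).

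**Figure D4:**
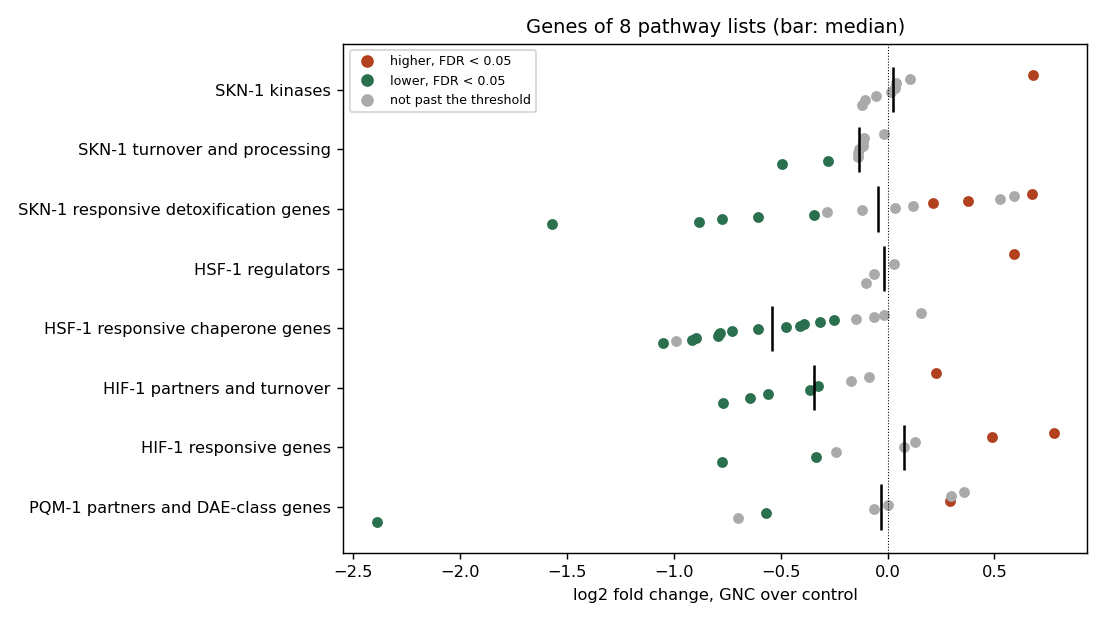
Log2 fold change of GNC over control (horizontal axis) for the tested genes of the 8 pathway lists, one point per gene, red for higher and green for lower at an adjusted p under 0.05, grey otherwise, with a bar at each median. The 18 HSF-1 responsive chaperone genes lie mostly left of 0, with a median of -0.54.

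Among the partners and turnover genes of HIF-1, 5 of 8 fell and 1 rose, with a median log2 fold change of -0.34. The lowest values among those that fell were those of rbx-1, rhy-1 and elb-1. The ring finger gene rbx-1 and the elongin gene elb-1 encode subunits of the ubiquitin ligase that VHL-1 works in. The level of elb-1 was 34.7 and 28.9 CPM with GNC, against 46.8 and 46.9 CPM in control (log2 fold change -0.56, SE 0.09, adjusted p = 0.00128). That of rbx-1 was 125 and 69.5 CPM with GNC, against 169 and 163 CPM in control (log2 fold change -0.77, SE 0.20, adjusted p = 0.0111), and it was -0.41 without GNC replicate 2 and -1.26 without GNC replicate 1. DESeq2 did not call rbx-1 (adjusted p = 0.141). The acyltransferase-like gene rhy-1, an inhibitor of HIF-1 that HIF-1 also switches on, had 113 and 95 counts with GNC, against 127 and 153 counts in control (log2 fold change -0.64, SE 0.16, adjusted p = 0.00976), and its adjusted p was 0.0503 in the least favourable fit without a library. The gene cysl-1, whose product holds back EGL-9, rose (log2 fold change 0.23, adjusted p = 0.0472), but in only 1 of the 4 fits without a library. Without the filter on low counts none of the 8 genes passed, and limma on FPKM called 1 of them lower and 1 higher.

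Among the 7 tested genes that respond to HIF-1, 2 were higher, 2 lower and 3 not past the threshold. The list mixes genes that HIF-1 raises with ftn-1, which it represses. Counts of higher and lower genes therefore do not give a direction of the HIF-1 response, which was not tested. The gene oac-54 had 1 to 6 counts per library and was not tested. The reporter gene nhr-57, a nuclear receptor, was at 8.97 and 8.83 CPM with GNC, against 7.98 and 8.87 CPM in control, with overlapping groups (log2 fold change 0.08, SE 0.13, adjusted p = 0.674). The cysteine synthase-like gene cysl-2, induced by HIF-1, fell to 23.8 and 20.9 CPM with GNC, against 37.3 and 39.4 CPM in control (log2 fold change -0.78, SE 0.09, adjusted p = 0.000195). The cysteine dioxygenase gene cdo-1 fell as well (-0.34, adjusted p = 0.0237), but in only 1 of the 4 fits without a library. The gene F22B5.4, whose RNA HIF-1 raises in hypoxia, rose to 13.3 and 14.0 CPM with GNC, against 8.14 and 7.78 CPM in control (log2 fold change 0.78, SE 0.12, adjusted p = 0.000833). The ferritin gene ftn-1, which HIF-1 represses, rose to 249 and 222 CPM with GNC, against 160 and 175 CPM in control (log2 fold change 0.49, SE 0.07, adjusted p = 0.000652).

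Around PQM-1, 1 of 8 tested genes rose and 2 fell, with a median log2 fold change of -0.03. The gene daf-16, which encodes the factor that PQM-1 opposes, was at 247 and 249 CPM with GNC, against 265 and 253 CPM in control (log2 fold change -0.06, SE 0.06, adjusted p = 0.430). The genes named dod lie downstream of daf-16. Of these, dod-23 rose (log2 fold change 0.29, adjusted p = 0.0368), in 2 of the 4 fits without a library. The gene dod-19 fell to 47.6 and 48.5 CPM with GNC, against 75.7 and 67.0 CPM in control (log2 fold change -0.57, SE 0.07, adjusted p = 0.000348). The gene dod-24 had 3 and 3 counts with GNC, against 15 and 13 counts in control. Scaled by library totals, its ratio was 0.198, with an exact binomial 95% interval of 0.0671 to 0.488 that covers counting error only. The TMM fit gave a log2 fold change of -2.39 (SE 0.52, adjusted p = 0.00535). It was -2.53 to -2.24 in the fits without a library, and the call did not hold in every one of these. DESeq2 gave no adjusted p for dod-24. dod-20, dod-21 and dod-22 had 0 to 4 counts per library and were not tested.

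The markers of some tissues moved with the groups. Of 10 oocyte and embryo markers 9 fell, and their summed level was 1322 to 1387 CPM with GNC, against 2160 to 2231 CPM in control. Of 6 germline markers 4 fell, with a sum of 1473 to 1500 CPM with GNC, against 1795 to 1867 CPM in control. Of 6 sperm markers 4 rose, with a sum of 318 to 347 CPM with GNC, against 253 to 261 CPM in control. The sum of 8 intestinal markers, of which 3 are yolk genes, was 2556 to 2668 CPM with GNC, against 3470 to 3909 CPM in control, with 4 genes lower and 2 higher. Most of that sum, and of its difference, came from the 3 yolk genes, all of them lower, and the 2 that rose are not yolk genes. Summed markers of body wall muscle, at 1018 to 1049 CPM with GNC and 975 to 1129 CPM in control, and of neurons, at 580 to 584 CPM with GNC and 507 to 599 CPM in control, overlapped between groups. Of 5 epidermal markers 2 were tested and 1 fell. The sum of the 5, at 105.2 to 106.1 CPM with GNC and 105.6 to 128.0 CPM in control, also overlapped between groups. All 10 oocyte and embryo markers were counted in every library, and skn-1, hsp-1, hsp-90 and sip-1 are also expressed in the germ line or embryo. The part of these tissues in the changes above was not tested.

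**Figure D5:**
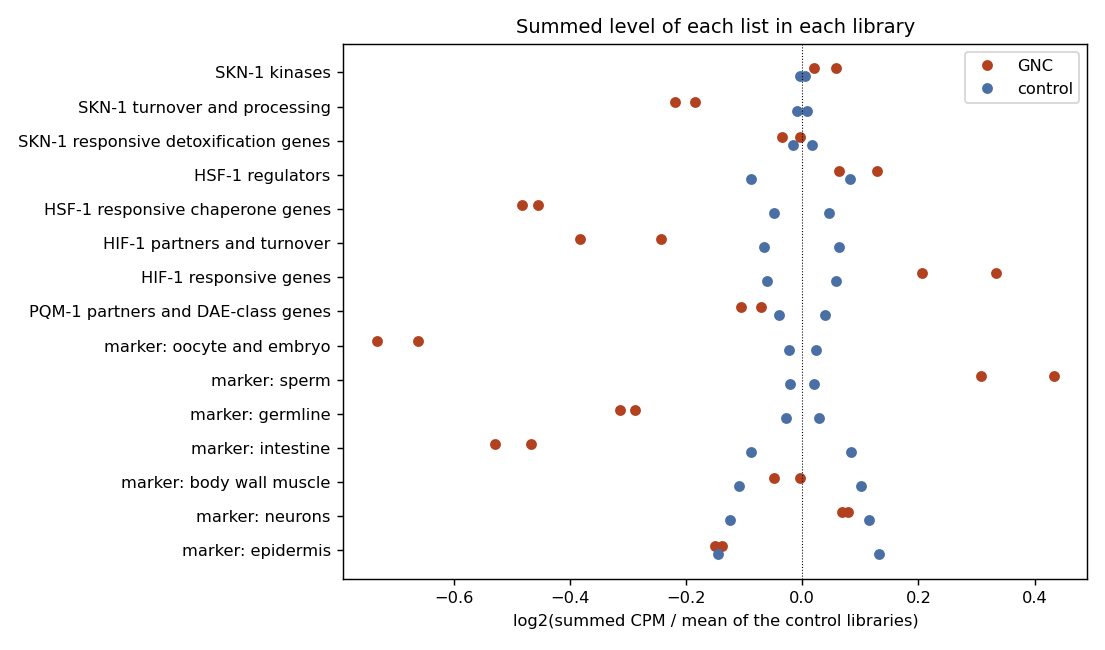
Log2 of the summed CPM of each list in each library over the mean of the control libraries (horizontal axis), with GNC in red and control in blue. The oocyte and embryo markers (1322 to 1387 CPM with GNC, 2160 to 2231 CPM in control) lie further left with GNC than the HSF-1 responsive chaperones (9090 to 9268 CPM with GNC, 12288 to 13122 CPM in control). Most of the chaperone sum came from hsp-90, hsp-1 and sip-1.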

How the data were processed

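For the 4 libraries the authors deposited FPKM and unscaled fragment counts of each gene, sequenced on an Illumina HiSeq instrument. The submitters' processing notes name CASAVA 1.8, TopHat2 2.1.0, Cuffdiff and the build WBcel235, without their roles. The counter and its use of strand are not given in the sources used here. Positions are printed as deposited; of 45040 identifiers found in the Ensembl annotation of WBcel235, all had the same chromosome and 61.6% the same start and end. Strand, transcript numbers and exons come from that annotation. Counts were filtered with filterByExpr, scaled by TMM and tested with the quasi-likelihood F-test of edgeR 4.0.16 (R 4.3.3), modelling treatment alone, and Benjamini-Hochberg adjustment over 16341 genes. The standard error is the log2 fold change divided by the square root of F. The fit draws on the variance of all genes, so this error is not the spread of the gene's own libraries alone. CPM are TMM-scaled. DESeq2 1.42.0 and limma 3.58.1 (limma on log2(FPKM + 0.1) of genes with at least 1 FPKM in at least 2 libraries) were alternatives, together with a replicate block, 5 other scalings, other filters and each library left out. The procedure was tested on simulated data. In these few genes changed, each by at least 2-fold, so they do not show how smaller or more widespread changes are called. The common biological coefficient of variation was 6.67%. Replicates differed by more than counting noise (chi-square over its degrees of freedom, 7.23 with GNC and 6.89 in control). The 8 genes and all lists were chosen with earlier results of these data known. The genes named are the 8 members, the reporters gst-4, hsp-16.2, hsp-70, nhr-57, rhy-1, cysl-2 and daf-16, up to 3 highest and 3 lowest genes past the test in each list, overlapping genes, and the 2 genes closest in profile to each of the 8 that passed. Outside this rule and after their values were seen, nsy-1, sek-1, pmk-1, hsp-1, hsp-90, sip-1, the hsp-16 genes of the pair sums and the listed genes with too few counts to test were also named. Of the listed genes, xrep-4 and ddi-1 were matched through reference symbols and hsp-90 through its older name daf-21.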

Additional observations from a re-analysis of the deposited data

How the results depend on the processing

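Of the 8 genes, 2 were higher and 0 lower at an FDR under 0.05. With the replicate number as a block these counts were again 2 and 0, with 3469 genes higher and 3601 lower in all. The deviations of equally numbered libraries correlated at r = 0.04 over genes, which are no replicates. Such a value cannot show whether the numbers pair the libraries, which is not known. The count of higher genes was 4 with library totals and 4 with expression-dependent offsets (gcs-1 and hif-1 in addition), and 0 with DESeq2's Wald test, 0 without the filter, where 29615 genes were tested, and 0 when a 2-fold change was required. Over all genes, 1573 were higher and 1042 lower without the filter, 2160 and 2514 with DESeq2, and 3218 and 1411 with limma on FPKM, against 3238 and 3356. When each library was left out, with the lone library assumed to vary like the other group, 0 to 2 genes were higher and 0 to 1 lower. The sign of wdr-23, whose log2 fold change was 0.0016, reversed to -0.0097 with DESeq2 size factors, -0.0089 with rescaling to the same median and -0.0096 with DESeq2's test, and ranged from -0.0705 to 0.0755 over the fits without a library. That of vhl-1 reversed to -0.119 with expression-dependent offsets and ranged from -0.0456 to 0.248 over the fits without a library. The signs of the other 6 genes did not change in the 14 alternatives each was given. The causes were not tested. Counts for the pathway lists under these settings, sums of near-identical genes and the abundance range were added after seeing the data. Precision is limited by 2 libraries per group and, for vhl-1, by its 97 to 147 counts.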

Other observations

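Many genes shared the profile of the 2 genes that passed the test. By Euclidean distance in centred log2 CPM over the 4 libraries, the named genes closest to egl-9 among 4231 with a mean of at least 20 CPM were the apyrase gene apy-1 (distance 0.03) and the potassium channel gene twk-7 (distance 0.03), and 90 genes lay within 0.1. Those closest to pqm-1 were the basic helix-loop-helix gene hlh-11 (distance 0.01) and the fatty acid and retinol binding gene far-2 (distance 0.02), with 244 genes within 0.1. With 4 libraries such a distance describes likeness in these samples only.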
